A study of Mus musculus with 4 samples.

Results

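The MHC class I antigen processing genes described here are Tap1, Tap2, Tapbp, Psmb8, Psmb9, Psmb10, B2m, Nlrc5, Erap1 and Cd274. These 10 genes were taken by name, with earlier results of these arrays known, and matched to the gene symbols of the array, with the brightest transcript cluster standing for a gene, and all 10 were found among 19938 measured genes. RNA came from 4 cultured cancer cell lines, each grown in DMEM from digested pieces of a mouse pancreatic tumor and left untreated, with 1 array per line. The lines TPC18645 and TPC20223 carry the genotype labelled Ela-TGFa;Ptg1a+/CRE; Trp53fl/fl (TPC), and the lines K459 and TCPA18654 carry p65fl/fl in addition (TPAC). All 4 lines thus share the TGF-α transgene, which the elastase promoter of acinar cells drives, a pancreatic Cre (p48-Cre in the study's methods) and the floxed p53 gene, and TPAC lines differ by the floxed gene of the NF-κB subunit RelA/p65. Values are log2 signals, so that a difference of 1 is a 2-fold change.

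Class I molecules show peptides from inside the cell to cytotoxic T cells. The proteasome cuts proteins into peptides, the TAP transporter carries them into the endoplasmic reticulum, tapasin holds the transporter next to the empty class I molecule, the aminopeptidase ERAP1 trims them, and β2-microglobulin is the light chain of the finished complex. Interferon-γ raises most of these genes, exchanges catalytic proteasome subunits for those of the immunoproteasome and acts in part through the class I transactivator NLRC5; it also raises PD-L1, the T-cell inhibitory ligand encoded by Cd274. Low class I processing is a known route by which pancreatic cancer cells escape T cells.

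Promoter windows of RefSeq on GRCm38.p6 (from 250 bases before to 50 bases after the gene start) were at hand for 8 of the 10 genes and are shown for the genes that hold a match to a motif searched and for Tap1, the gene of the largest range over the lines. They were searched on both strands for GAAA followed after any 2 bases by GAAA (the core of the interferon-stimulated response element), for TTCNNNGAA (which STAT dimers bind) and for the consensus κB motif of NF-κB, and matches stand in capitals. Tap1 and Psmb9 start back to back, and their windows share 275 bases, so that the single window of Tap1 (chr17:34187306-34187605, + strand) stands for both and holds none of the motifs.
Tap1: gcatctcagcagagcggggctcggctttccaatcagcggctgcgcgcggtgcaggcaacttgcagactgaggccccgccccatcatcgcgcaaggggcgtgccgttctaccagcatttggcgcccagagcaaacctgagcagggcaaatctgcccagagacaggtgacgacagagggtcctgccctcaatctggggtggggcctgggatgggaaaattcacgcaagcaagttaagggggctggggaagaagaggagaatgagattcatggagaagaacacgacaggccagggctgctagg
The Psmb8 window (chr17:34197945-34198244, + strand) holds a TTCNNNGAA match from base -97 to -89 before the gene start.
Psmb8: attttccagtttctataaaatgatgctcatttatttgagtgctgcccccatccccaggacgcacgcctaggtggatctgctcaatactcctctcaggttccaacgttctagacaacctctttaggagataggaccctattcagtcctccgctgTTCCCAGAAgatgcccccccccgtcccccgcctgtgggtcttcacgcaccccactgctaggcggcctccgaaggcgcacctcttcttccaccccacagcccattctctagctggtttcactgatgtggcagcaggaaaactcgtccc
The Erap1 window (chr13:74639603-74639902, + strand) holds the response element core on the opposite strand, from base -4 to base 6.
Erap1: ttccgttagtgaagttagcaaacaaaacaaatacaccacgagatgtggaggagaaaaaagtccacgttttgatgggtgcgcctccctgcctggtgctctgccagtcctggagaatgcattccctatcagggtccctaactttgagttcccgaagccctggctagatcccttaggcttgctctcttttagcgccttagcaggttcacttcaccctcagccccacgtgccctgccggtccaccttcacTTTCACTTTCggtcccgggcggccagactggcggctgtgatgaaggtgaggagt
The B2m window (chr2:122147437-122147736, + strand) holds that core from base -139 to -130 and a κB match from -126 to -117, which do not overlap.
B2m: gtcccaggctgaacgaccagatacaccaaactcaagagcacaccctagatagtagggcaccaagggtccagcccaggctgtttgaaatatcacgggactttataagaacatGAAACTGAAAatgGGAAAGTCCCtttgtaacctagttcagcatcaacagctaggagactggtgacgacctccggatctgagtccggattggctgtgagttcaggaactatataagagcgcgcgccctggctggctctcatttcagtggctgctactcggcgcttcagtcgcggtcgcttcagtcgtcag
The response element core was found in 2 of the 8 windows, against 3.44% of 32851 windows of all genes, TTCNNNGAA in 1 (8.30%) and the κB motif in 1 (8.46%). The windows of Tapbp, Psmb10 and Cd274 hold none of these letters. A match is a run of letters and not a measured binding site.

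The 4 lines did not separate by genotype, which touches every comparison made here. TPC20223 had a log2 signal of 6.08 for Krt19, the cytokeratin 19 gene of ductal cells, whereas the others lay between 11.74 (TPC18645) and 12.65 (K459). TPC18645 and TCPA18654 differed 2-fold or more in 0.271% of genes although their genotype labels differ, against 11.2% between the TPC lines and 3.87% between the TPAC lines. Rela, the gene floxed in TPAC mice, had signals of 11.12, 10.70, 10.82 and 11.10 in TPC18645, TPC20223, K459 and TCPA18654. The sources used here do not name the deleted exons, so these signals do not check the labels. No source used here says if a genotype's lines stem from separate mice, so a p-value reflects how far these lines differ and no more.

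Among the antigen processing genes, Tap1 and Psmb8 varied most. TPC20223 had the highest signal of the 4 lines for 7 of the 10 genes, Tap1, Tap2, Psmb8, Psmb9, B2m, Nlrc5 and Erap1, against 28.1% of all genes. K459 had the lowest for 6, Tap1, Tap2, Tapbp, Psmb8, B2m and Erap1, against 24.2% of all genes. Both held for 5 genes, against 10.5%. Cd274 was the 1 gene for which TPC20223 was the lowest line, against 38.8%. Compared with TPC18645, TPC20223 was higher for 7 genes, against 43.1% of all genes, and lower for Tapbp, Psmb10 and Cd274, 3 genes against 55.6%. These are counts over 1 array per line with no test.

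**Figure D1:**
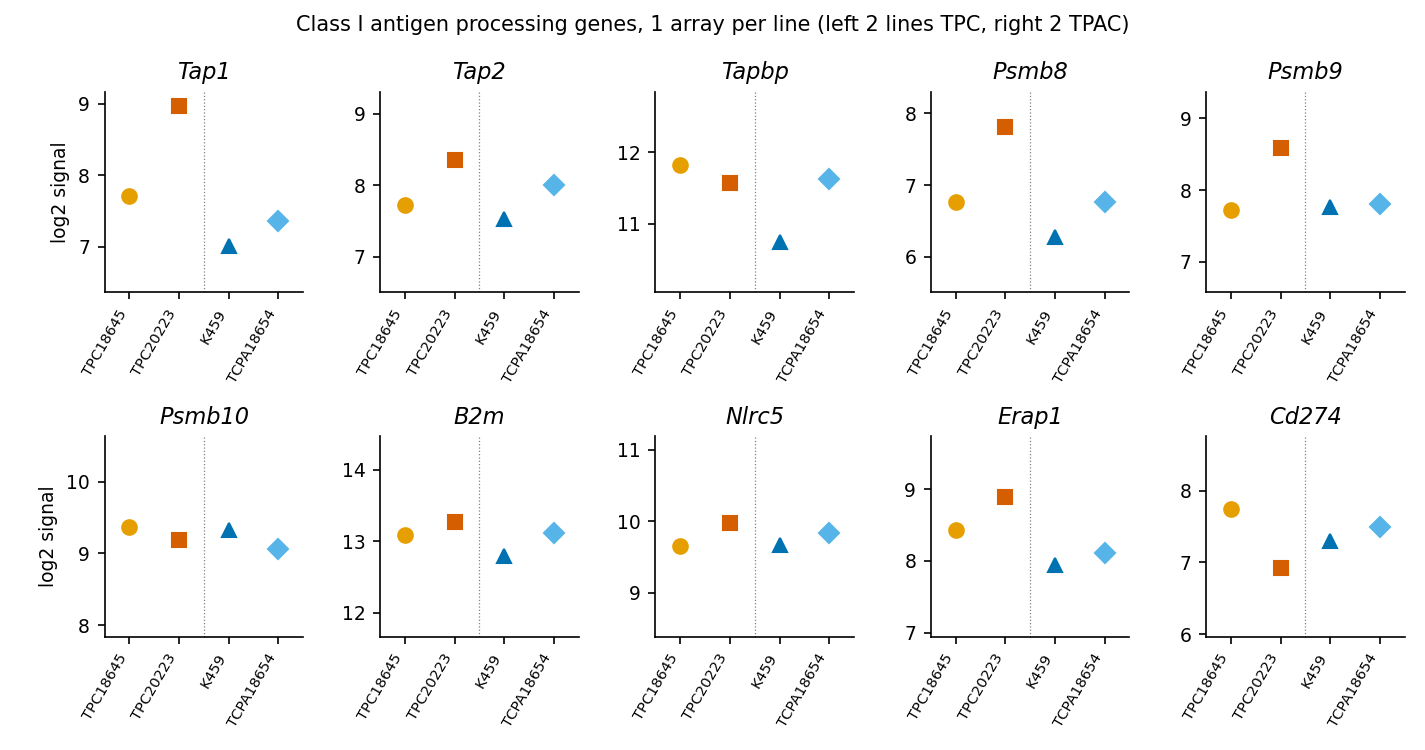
Log2 signal (y axis) of each of the 10 genes in the lines TPC18645, TPC20223, K459 and TCPA18654 (x axis), 1 array per point and no error bar; every panel spans the same log2 range around the mean of its gene. TPC20223 lies highest for Tap1 (8.97) and Psmb8 (7.81) and lowest for Cd274 (6.92).

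Tap1 encodes one chain of the peptide transporter (transcript cluster 10444244). Its log2 signal was 7.71 (TPC18645), 8.97 (TPC20223), 7.02 (K459) and 7.36 (TCPA18654). TPC20223 was the high line, and both TPAC lines lay below both TPC lines. TPAC lines averaged 7.19 ± 0.24 (SD, n = 2) while TPC lines averaged 8.34 ± 0.89 (SD, n = 2), and this log2 change of -1.15 (standard error 0.49) did not pass the test (limma, adjusted p = 0.989). The gap between the TPC lines, 1.26, was larger than that difference, and against TPC18645 alone the difference was -0.52. In such cultures, fewer cells that express a gene and less RNA per cell cannot be told apart.

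Tap2 encodes the partner chain (cluster 10444268). Its log2 signal was 7.73 (TPC18645), 8.35 (TPC20223), 7.53 (K459) and 8.0 (TCPA18654). The genotypes overlapped, with a TPAC line in second place. The range over the lines was 0.82, against 1.95 for Tap1, and the TPAC minus TPC difference changed from -0.59 against TPC20223 alone to 0.04 against TPC18645 alone.

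Tapbp encodes tapasin, which bridges the transporter and the class I heavy chain (cluster 10444068). Its log2 signal was 11.82 (TPC18645), 11.57 (TPC20223), 10.75 (K459) and 11.63 (TCPA18654). K459 stood below the other lines, and TPC20223 was not high. The gap between the TPAC lines was -0.88 (K459 minus TCPA18654), larger than the TPAC minus TPC difference of -0.51 with a standard error of 0.36. Without K459 this difference was -0.07.

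Psmb8, Psmb9 and Psmb10 encode the 3 catalytic subunits that interferon exchanges into the immunoproteasome. Psmb8 (LMP7, cluster 10444258) had log2 signals of 6.76 (TPC18645), 7.81 (TPC20223), 6.27 (K459) and 6.76 (TCPA18654). It was high in TPC20223 and low in K459, with the same value in TPC18645 and TCPA18654, and its difference of -0.77 had a standard error of 0.44. Psmb8 was the one dim gene among the 10, that is, among the lowest 40% of genes by mean signal.

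Psmb9 (LMP2, cluster 10450145) had log2 signals of 7.72 (TPC18645), 8.59 (TPC20223), 7.76 (K459) and 7.81 (TCPA18654). TPC20223 stood alone, and the other 3 lines lay between 7.72 and 7.81. Psmb10 (MECL-1, cluster 10581378) had signals of 9.37, 9.19, 9.33 and 9.06 in the same order of lines. It had the smallest range of the 10 genes, 0.31, and TPC20223 was not its high line.

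Each of these subunits takes the place of a subunit of the constitutive proteasome, Psmb5, Psmb6 and Psmb7 in turn. Between TPC20223 and TPC18645 the log2 difference was 1.05 for Psmb8 but -0.04 for Psmb5, and 0.87 for Psmb9 against 0.33 for Psmb6. For Psmb10 and Psmb7 it was -0.18 and -0.16. Between K459 and TCPA18654 it was -0.49 for Psmb8 and 0.27 for Psmb5, opposite in sign. Of the 14 genes of the constitutive core, 7 were higher and 7 were lower in TPC20223 than in TPC18645, with a median of 0.03 against -0.05 over all genes. None reached a 2-fold difference between these lines, against 11.2% of all genes. The activator gene Psme1, which interferon-γ also raises, had signals of 10.93 (TPC18645), 10.15 (TPC20223), 10.94 (K459) and 10.68 (TCPA18654), so that it was lowest in TPC20223. Its partner Psme2 was at 11.91, 11.62, 11.65 and 11.71.

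B2m, the light chain gene, was bright in every line (cluster 10475414). Its log2 signal was 13.09 (TPC18645), 13.27 (TPC20223), 12.80 (K459) and 13.11 (TCPA18654), a range of 0.47. The order was that of Tap1 at its ends, TPC20223 highest and K459 lowest. The TPAC minus TPC difference of -0.23 had a standard error of 0.18 (limma, adjusted p = 0.989).

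Erap1, the peptide-trimming aminopeptidase gene (cluster 10406205), had log2 signals of 8.43 (TPC18645), 8.89 (TPC20223), 7.94 (K459) and 8.11 (TCPA18654). Both TPAC lines lay below both TPC lines. TPAC lines averaged 8.02 ± 0.12 (SD, n = 2) while TPC lines averaged 8.66 ± 0.33 (SD, n = 2), a log2 change of -0.64 (standard error 0.22). It was 1 gene of the 10 that fell under the unadjusted limit of 0.05 in limma with a change of at least 0.58, against 0.421% of all genes in either direction, and it missed that limit with a common median, cyclic loess, an intensity trend or dim genes left out, by the methods' test, and without TPC20223 or K459. After adjustment over all genes it did not pass (limma, adjusted p = 0.989). The direction held whichever line was left out, from -0.41 without TPC20223 to -0.87 without TPC18645.

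Nlrc5 encodes the transactivator of class I genes. Its brightest cluster (10574100) had log2 signals of 9.66 (TPC18645), 9.98 (TPC20223), 9.67 (K459) and 9.84 (TCPA18654). TPC20223 was highest by a small step. The array holds 19 clusters with the symbol Nlrc5, whereas each of the other 9 genes has 1, and this brightest cluster was among those with the smaller gaps.

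Over the 19 clusters TPC20223 was the highest line in 19 of 19. Its gap to TPC18645 ran from 0.20 to 1.35, with a median of 0.62, against 0.32 in the brightest cluster. Its gap to K459 had a median of 0.78 and a highest value of 2.20. The TPAC minus TPC difference was below 0 in 18 of 19 clusters, with a median of -0.35, against -0.07 in the brightest cluster. Clusters of 1 gene are measured on the same RNA and are not replicates, and the sources used here do not say how they divide the gene.

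**Figure D2:**
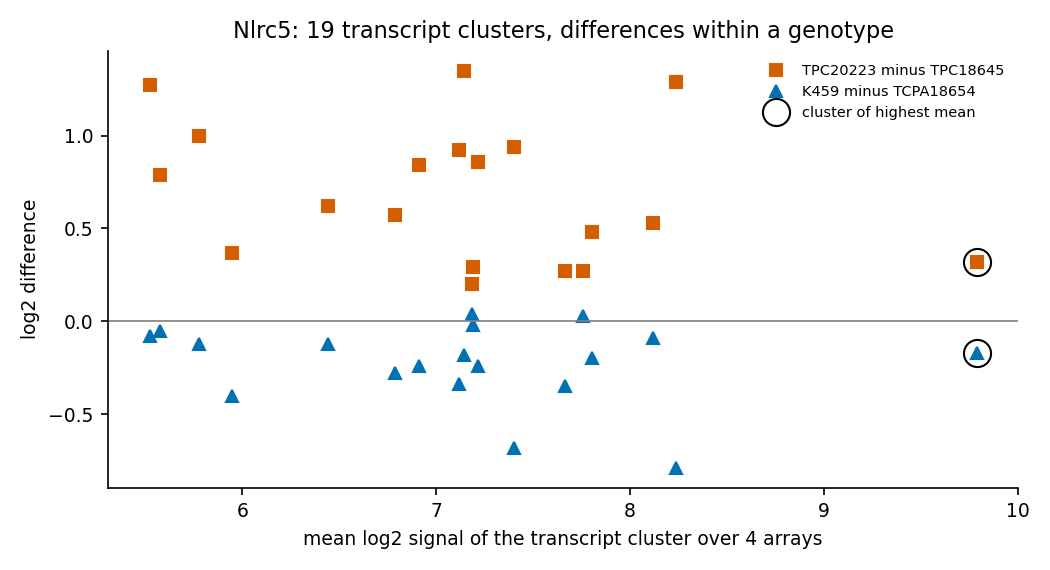
Log2 difference between the lines of a genotype (y axis) for the 19 transcript clusters of Nlrc5 against their mean log2 signal over 4 arrays (x axis); squares are TPC20223 minus TPC18645, triangles K459 minus TCPA18654 and circles mark the cluster of highest mean. All squares lie above 0, from 0.20 to 1.35, and the circled square lies at 0.32.

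Cd274 went another way. The PD-L1 gene (cluster 10462390) had log2 signals of 7.74 (TPC18645), 6.92 (TPC20223), 7.30 (K459) and 7.49 (TCPA18654). TPC20223, the line with the most Tap1 and Psmb8 signal, was the lowest line, and both TPAC lines lay between the TPC lines. The gap between the TPC lines was -0.82. The TPAC minus TPC difference was 0.07 with a standard error of 0.33 (limma, adjusted p = 0.996). The related ligand gene Pdcd1lg2, which encodes PD-L2, was dim and ran from 4.96 to 5.23.

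The genotype comparison asks whether loss of RelA, on top of the TGF-α transgene and loss of p53, goes with other levels of class I processing genes. Calls needed a limma adjusted p no higher than 0.05 together with a change of 0.58 on the log2 scale, and they took in 0 of the 10 genes and 0% of all genes. Without adjustment 84 of all genes passed both limits, 1 of them (Erap1) in the set. The mean signal was lower in TPAC than in TPC cells for 9 of the 10 genes, all but Cd274, against 46.7% of all genes, with a median difference of -0.32 against 0.02. The lines did not overlap for 2 genes, Tap1 and Erap1, lower in TPAC cells, against 13.3% of all genes in that direction, and 0 genes were higher without overlap, against 13.7%. The gap between the lines of 1 genotype exceeded the difference between genotypes for 9 of the 10 genes, all but Erap1, against 85.2% of all genes.

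The sign of 5 genes, Tap2, Psmb9, Psmb10, Nlrc5 and Cd274, changed when 1 line was left out. Without TPC20223 the median difference of the 10 genes was -0.21 and without K459 it was -0.15. Tap1, Tapbp, Psmb8, B2m and Erap1 were lower in TPAC cells whichever line was left out, although without K459 Tapbp and B2m differed by -0.07 each. The labels of 2 and 2 lines can be dealt in 6 ways, and the smallest two-sided p that an exact permutation test allows is 0.333.

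**Figure D3:**
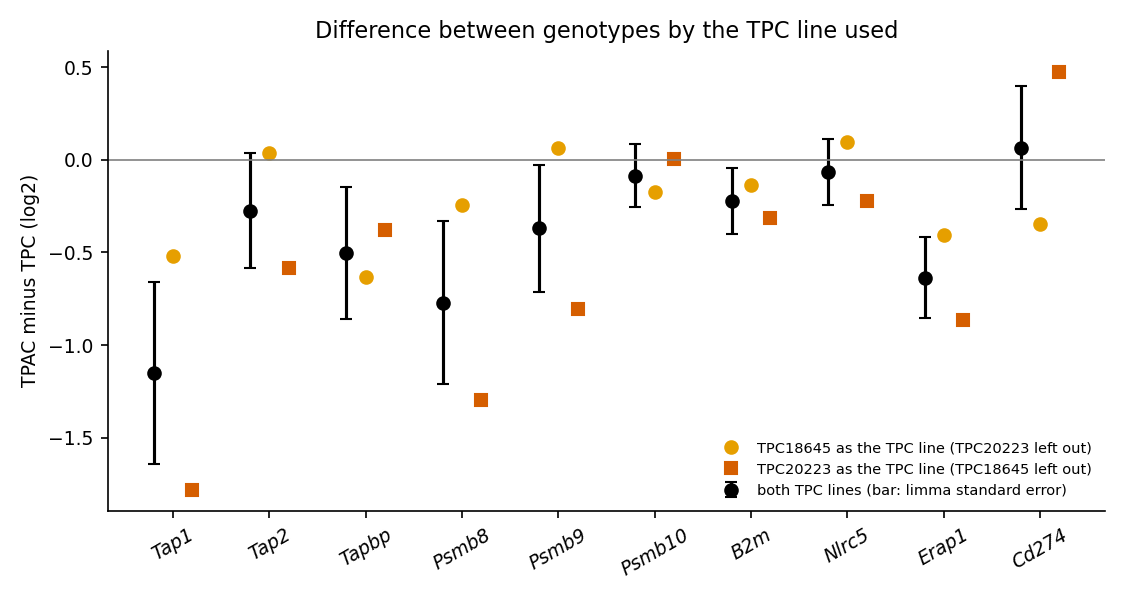
TPAC minus TPC log2 difference (y axis) of each of the 10 genes (x axis) with both TPC lines (black circles, bars are limma standard errors) or with TPC18645 (light orange circles) or TPC20223 (dark orange squares) as the TPC line. For Tap1 the values are -1.15, -0.52 and -1.78, and for Cd274 the sign changes with the line.

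Line by line, Tap1 and Psmb8 were 2-fold or more higher in TPC20223 than in each of the other lines. These were 2 of the 10 genes in each pair, whereas 5.97% of all genes were as much higher than in TPC18645, 5.79% than in K459 and 6.33% than in TCPA18654. In either direction 11.2%, 10.9% and 10.9% of all genes differed 2-fold in these pairs. Between K459 and TPC18645 Tapbp differed 2-fold, 1 of 10 genes against 4.34%. No gene of the set differed 2-fold between K459 and TCPA18654 (3.87% of all genes) or between TCPA18654 and TPC18645 (0.271%). In the last pair, of different genotype labels, the largest difference of the set was -0.35 for Tap1, followed by -0.32 for Erap1, -0.31 for Psmb10 and 0.27 for Tap2. At a smaller step of 0.58 on the log2 scale, 5 genes of the set differed between TPC20223 and TPC18645 (22.4% of all genes), 6 between TPC20223 and K459 (22.3%) and 4 between TPC20223 and TCPA18654 (21.8%). At that step 2 genes differed between K459 and TPC18645 (10.9%), 1 between K459 and TCPA18654 (10.0%) and 0 between TCPA18654 and TPC18645 (1.68%).

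Tap1, Tap2, Psmb8 and Psmb9 are neighbors in the mouse MHC on chromosome 17, between genes of class II molecules. In the stretch from H2-Oa to H2-Eb1 in the order of GRCm38.p6, which was chosen after its values were seen, 11 of 13 protein-coding genes were measured by a cluster of their own and TPC20223 was the highest line for 9, against 28.1% of all genes. Of these, 4 are genes of the set already counted, and the dim H2-Oa and H2-Aa had small steps, as did H2-Eb1, which is not dim. H2-DMa, which helps to load class II molecules, was at 6.79 (TPC18645), 8.30 (TPC20223), 6.07 (K459) and 6.65 (TCPA18654). H2-Ab1, a class II chain gene, was at 5.81, 7.48, 5.87 and 5.82. Both are dim by mean signal over the lines, and both had the order of Tap1 at the top, TPC20223 first. Other genes inside the stretch did not: Brd2, which encodes a chromatin reader, was at 10.64, 10.39, 10.40 and 10.60, and the dim H2-Ob at 6.37, 6.13, 6.43 and 6.38.

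**Figure D4:**
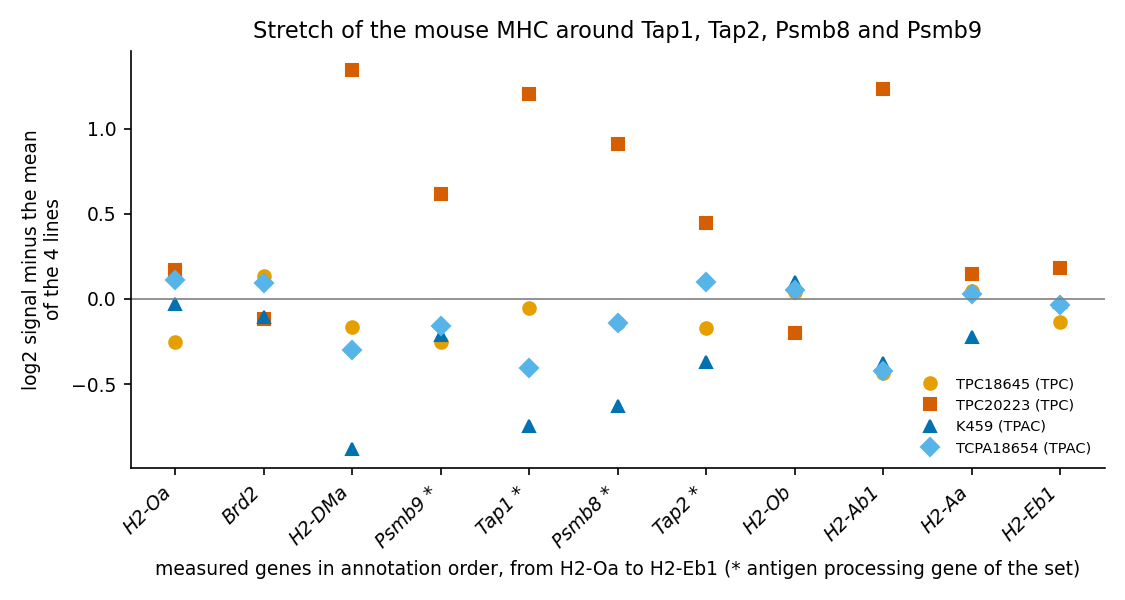
Log2 signal minus the mean of the 4 lines (y axis) for the 11 measured genes from H2-Oa to H2-Eb1 in annotation order (x axis, not to scale), 1 point per line; asterisks mark genes of the antigen processing set. TPC20223 lies highest for Psmb9, Tap1, Psmb8, Tap2, H2-DMa and H2-Ab1 but not for Brd2 or H2-Ob.

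Of the class I heavy chain and class I-like genes listed, 15 of 28 had a cluster of their own. H2-K1 and H2-D1, the classical chains, share their clusters with other symbols and were not analysed here. Of the 15 genes, 13 were higher in TPC20223 than in TPC18645, against 43.1% of all genes, with a median of 0.15 against -0.05. Of the same 15 genes 10 are dim. H2-Q4 had log2 signals of 7.44 (TPC18645), 10.70 (TPC20223), 6.98 (K459) and 6.97 (TCPA18654). H2-Q5 was at 8.75, 10.75, 8.31 and 8.70. In both, TPC20223 stood far above the other 3 lines. Near-identical class I genes can share probes, so which of them gave these signals is uncertain, and neither TPAC minus TPC difference passed the test (limma, adjusted p = 0.989 for each). The nonclassical gene H2-M2, which is dim, ran from 4.98 in TPC20223 to 6.12 in TCPA18654.

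General folding genes of the endoplasmic reticulum were even across the lines. Of 11 measured genes none differed 2-fold between any pair of lines, against 0.271% to 11.2% of all genes by pair. Their median range was 0.25, against 0.40 over all genes, and their largest was 0.45, in the translocon gene Sec61a1. The chaperone gene Hsp90b1 had a range of 0.42 and Tapbpl, which encodes a tapasin-related editor, of 0.38. Cytosolic peptidases had ranges up to 0.59.

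Genes of the interferon response pathway were mixed in TPC20223, which was the lowest line for 12 of 19 measured genes, against 38.8% of all genes, and the highest for 7, against 28.1%. Of these 19 receptors, kinases, transcription factors and inhibitors, 7 were 2-fold or more lower in TPC20223 than in TPC18645, against 5.28% of all genes, and 2 were as much higher, against 5.97%. The median difference was -0.49, against 0.39 for the antigen processing set and -0.05 for all genes.

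Ifngr1, the ligand-binding chain of the interferon-γ receptor, had log2 signals of 12.42 (TPC18645), 10.16 (TPC20223), 12.32 (K459) and 12.38 (TCPA18654). TPC20223 was far below the other lines, which lay between 12.32 and 12.42. Ifngr2, the second receptor chain, was at 12.72, 11.60, 12.27 and 12.72, and the receptor kinase gene Jak2 at 9.88, 8.86, 9.90 and 9.87. Irf7, a factor of the type I interferon response, was at 9.46, 6.94, 7.84 and 8.46, and Irf9, another factor of that response, at 9.90, 8.53, 9.36 and 9.20. For Irf7 and Irf9 TPC18645 was the highest line, above both TPAC lines.

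The factors that were 2-fold higher in TPC20223 than in TPC18645 were Irf1 and Irf5. Irf1, a factor that interferon-γ induces and that acts on Tap1 and Psmb9, had log2 signals of 9.26 (TPC18645), 10.35 (TPC20223), 9.44 (K459) and 9.05 (TCPA18654). A dimmer cluster of Irf1 gave a gap between the TPC lines of 0.13 in place of 1.09. Irf5 was at 7.23, 8.33, 6.96 and 6.73, and Irf2 at 10.02, 9.54, 9.99 and 9.97. For Irf5 and for the brighter cluster of Irf1 TPC20223 was the high line, as for Tap1. Of 7 measured interferon ligand genes 6 are dim, among them Ifng, which ran from 6.54 to 6.62, and Ifnb1, from 5.51 to 5.90. The exception, Ifnl2, a type III interferon gene, ran from 8.16 to 8.59.

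**Figure D5:**
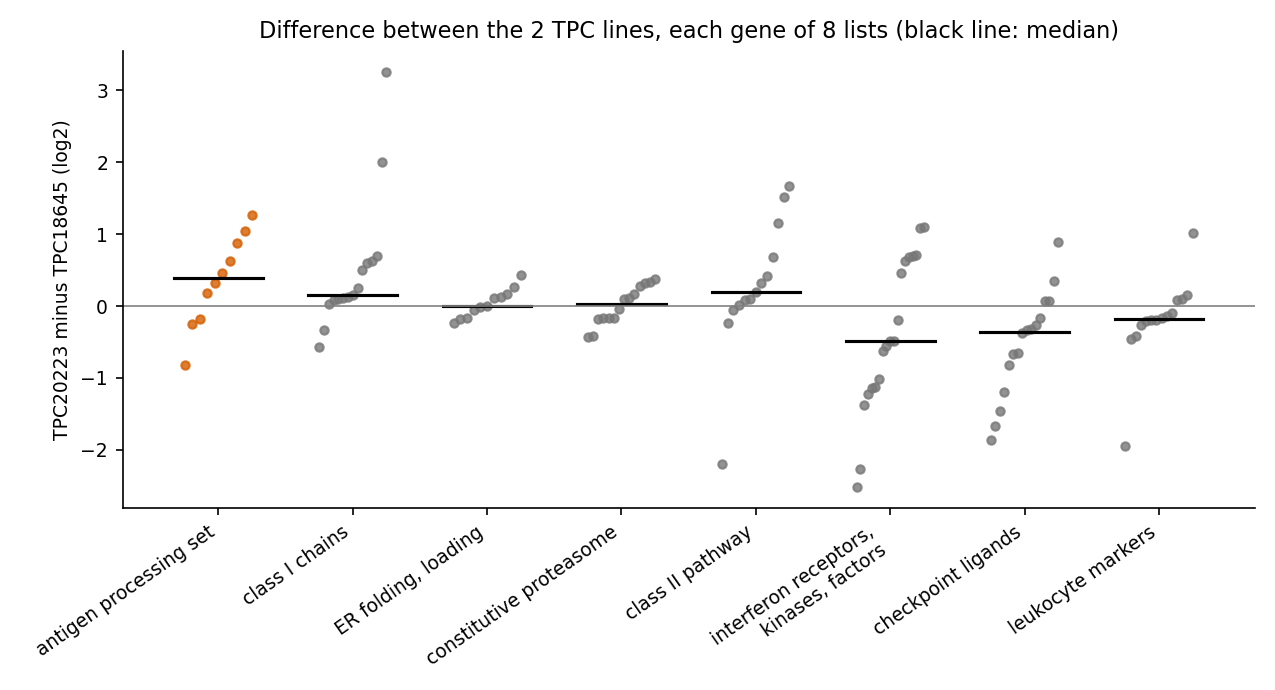
TPC20223 minus TPC18645 log2 difference (y axis) of each measured gene in 8 gene lists (x axis), 1 array per line; points are genes, sorted by value within a list, and black lines are medians. The antigen processing set has a median of 0.39 and the interferon receptors, kinases and factors one of -0.49.

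In the class II pathway 10 of 13 measured genes were higher in TPC20223 than in TPC18645, against 43.1% of all genes, and 8 are dim. Ciita, the class II transactivator gene, was dim and even, from 6.33 to 6.52. Ifi30, an interferon-γ-inducible lysosomal reductase gene of the same list, had a log2 signal of 8.74 in TPC20223 against 10.89 or more in each of the other lines, low where H2-Ab1 and H2-DMa were high. It differed from them in being bright in the other 3 lines.

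Markers of other cells were read in the same arrays. Of 14 measured leukocyte markers 13 are dim, with Ptprc, which encodes CD45, between 5.61 in K459 and 6.02 in TPC18645 and Cd3e between 6.58 and 6.83. Their linear signals summed to 1228 (TPC18645), 902 (TPC20223), 1063 (K459) and 1243 (TCPA18654). Without Cd68, the marker that is not dim, the sums were 840, 801, 861 and 855, nearly even over the lines. Sums over dim markers alone do not measure leukocyte content. By log2 signal Cd68 ran from 6.66 in TPC20223 to 8.60 in TPC18645 and TCPA18654, and the dim Lyz2 from 5.46 in TPC18645 to 6.91 in K459. The sum over 8 fibroblast markers was 4691, 15843, 5279 and 4193 and that over 9 ductal markers 30778, 2846, 48408 and 34062. Over 5 endothelial markers, all dim, it was 330, 442, 308 and 336, highest in TPC20223. Over 8 acinar markers, 5 of them dim, it was 1125, 894, 780 and 864. In TPC20223, the line with the most Tap1 and Psmb8 signal, the fibroblast sum was thus highest and the ductal sum lowest. K459, with the least of both genes, had the highest ductal sum and the second highest fibroblast sum. Of the single markers, 6 of 8 fibroblast markers were highest in TPC20223 (not Dcn and Dpt) and 8 of 9 ductal markers were lowest (not Sox9). Whether these sums reflect a mix of cell types was not tested, nor was the part of such a mix in the differences. The array gives no detection call, so no marker can be called absent.

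The mean profile of the 10 genes, each centred on its own mean, was highest in TPC20223 (0.38), followed by TPC18645 (0.03), TCPA18654 (-0.06) and K459 (-0.34). The 5 other genes closest to it by Euclidean distance over the 4 lines were Marchf3, Gm24463, Sec16b, Metrnl and Dclk2, at distances from 0.03 to 0.05. Marchf3, the closest, had log2 signals of 7.59, 7.93, 7.23 and 7.53. With 4 points and 19938 genes to choose from, such likeness is a description of these arrays.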

How the data were processed

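Total RNA of 4 cell lines was labelled with biotin and hybridised to Affymetrix Mouse Gene ST arrays. The authors deposited log2 signals from RMA, which corrects background, gives all arrays nearly one distribution and summarises the probes of a transcript cluster. Affymetrix Expression Console 1.4 is named in the submitters' notes on processing. Batches and filters are not given in the sources used here. Precision is limited by having 4 arrays, and RMA hides any difference in total RNA. Array medians lay between 7.19 and 7.26.

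Of 28941 clusters, 21789 carry 1 symbol, 1621 several and 5531 none in the platform annotation. By Entrez number 21698 of the first matched RefSeq on GRCm38.p6, with 0 symbols changed. The cluster of highest mean stood for a gene, giving 19938 genes. TPAC and TPC lines, grouped by the genotype in the labels, were compared by limma 3.58.1 in R 4.3.3 (lmFit and eBayes, two-sided, Benjamini-Hochberg over all genes). A run on simulated data checked the code only. It gave every gene the same small noise, so it does not show how the test performs on lines that differ as these do. Genes with a mean signal in the lowest 40% (up to 6.96) are called dim. Line pairs have 1 array each and no test.

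The genes, the 16 other lists and the tests were chosen with earlier results of these data known. Named are the 10 genes, genes of a fixed list, and in the other lists up to 3 genes of the largest range over the lines; further genes were chosen after their values were seen. Tables and figures were made with Python 3.11.15, pandas 2.3.3 and matplotlib 3.10.9. Alternatives were a common median, cyclic loess, averaging the clusters of a gene, no dim genes, an intensity trend, the methods' test, other thresholds and leaving out each line. The methods' test is a t-test of TPAC against TPC lines in each gene, with equal variance assumed. Unlike limma, it shares no variance between genes.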

Additional observations from a re-analysis of the deposited data

How the results depend on the processing

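No gene, of the 10 or of all, was called by limma or the methods' test under any scaling, cluster rule, filter, variance model or left-out line. At an unadjusted p under 0.05 together with a change of at least 0.58, limma passed 84 genes, 1 of them in the set. The methods' test passed 15 genes at these limits, and without dim genes limma passed 50. It passed 19 genes without K459, 114 without TPC20223, 395 without TCPA18654 and 2844 without TPC18645, 4 of the last in the set (smallest limma adjusted p of all genes 0.0913). Between scalings, cluster rules, filters and tests, 59 of 59 TPAC minus TPC differences of single genes kept their direction, but most could not change it. The intensity trend, the methods' test and the dim filter leave the difference of a gene as it is. Averaging clusters changes only Nlrc5, so that only the common median and cyclic loess move all 10 genes. With 1 line left out, the difference ran from -0.59 to 0.035 for Tap2, from -0.81 to 0.065 for Psmb9, from -0.22 to 0.05 for Psmb10, from -0.23 to 0.10 for Nlrc5 and from -0.35 to 0.48 for Cd274. The median of the 10 genes ran from -0.48 to -0.15. The cause was not tested. With 1 line left out a group holds 1 array, which limma takes to vary like the other group.

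The number of genes of the set that differ 2-fold between TPC20223 and TCPA18654 was 1 with a common median. With dim genes left out, which removes Psmb8, it was 1 for TPC20223 with TPC18645, with K459 and with TCPA18654. At a log2 difference of 0.58 it was 5 for TPC18645 and TPC20223, 2 for TPC18645 and K459, 6 for TPC20223 and K459, 4 for TPC20223 and TCPA18654 and 1 for K459 and TCPA18654. TPC20223 stayed the highest line for 7 genes under both scalings, whereas K459 was the lowest for 8 with a common median. No paired analysis was possible because the labels give no replicate numbers that the genotypes share.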

Other observations

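Ligands by which tumor cells meet T cells and NK cells also differed by line. Of 16 measured checkpoint and co-stimulatory ligand genes, 12 were lower in TPC20223 than in TPC18645, against 55.6% of all genes, with a median log2 difference of -0.36 against -0.05, and 4 were 2-fold or more lower, against 5.28%. The adhesion ligand gene Icam1 had a log2 signal of 7.75 in TPC20223, below 9.21 in TPC18645, 9.39 in TCPA18654 and 9.58 in K459. In the order TPC18645, TPC20223, K459, TCPA18654, Vtcn1, which encodes the inhibitory ligand B7-H4, was at 8.65, 6.79, 8.42 and 8.02, and Nectin2, a ligand of NK and T cell receptors, at 9.09, 7.90, 9.68 and 9.11. All of these were lowest in TPC20223, as Cd274 was.

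The NKG2D ligand genes with a cluster of their own went the other way. H60b was at 5.98, 9.15, 7.65 and 6.56 in that order of lines, and Raet1d at 9.66, 10.39, 8.97 and 9.79. Members of these families can share probes, and 7 of 9 listed genes were not analysed here. Among interferon-induced GTPase genes, Irgm1 was at 12.00, 10.39, 11.05 and 11.46 in the same order of lines, lowest in TPC20223. Gbp3 was at 7.98, 7.75, 7.74 and 7.09, and the dim Iigp1 at 4.69, 5.72, 4.88 and 4.69. None of these genes passed the TPAC against TPC test (limma, adjusted p of 0.989 or more).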
